A study of Mus musculus with 7 samples.

Results

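To examine how hepatocyte *B4galt1* deletion relates to vitamin A handling in the fatty liver, 9 genes for retinoid storage, transport and conversion were taken from the 23347 genes counted in liver RNA, namely *Lrat*, *Rbp4*, *Rdh10*, *Rdh11*, *Rdh16*, *Dhrs3*, *Bco1*, *Cyp26a1* and *Cyp26b1*. They were listed by name for their roles, with earlier results of these data known, and all 9 passed the filter on low counts that 15179 genes passed. With p-values from edgeR's quasi-likelihood test, adjusted by the Benjamini-Hochberg method, none of the 9 was called changed between the groups, whereas 15.8% of all tested genes were called. Their log2 fold changes ran from -0.56 for *Rdh11* to 0.87 for *Cyp26a1*, with 7 genes below 0 and 2 above. Around them in the pathway, 10 of 54 other tested retinoid genes (18.5%) were called, among them lower *Retsat*, *Aldh1a1*, *Adh4* and *Rxra*.

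Liver RNA came from 7 male mice on a C57BL/6 background, 1 library per mouse, all fed for 15 weeks with the CDAHFD, a choline-deficient high-fat diet that brings on steatohepatitis, starting at 6 to 8 weeks of age. The 4 control mice were *B4galt1* flox/flox, with both *B4galt1* alleles flanked by recombination sites and no Cre, and the labels give their genotype as WT. The other 3 mice were littermates labelled *B4galt1* hep-/-, which carry the same floxed alleles and *Alb-Cre*, a recombinase driven by the albumin promoter, so that deletion is limited to hepatocytes and other liver cells keep the gene. B4GALT1 is the Golgi enzyme that adds galactose to the glycans of proteins. Chow-fed mice were not analysed here.

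Levels are given as CPM (counts relative to library size) after TMM normalization, a scaling that trims the genes with the most extreme ratios. A gene counted as called when its adjusted p was under 0.05 and its log2 fold change was over 0.58 in either direction. Fold changes compare livers labelled *B4galt1* hep-/- with *B4galt1* flox/flox livers, so negative values mean a lower level in the former. Total counts were 37838654 to 39668509 in *B4galt1* flox/flox livers and 30608271 to 34586588 in the other group, and mitochondrially encoded transcripts took 5.79% ± 1.70 (SD, n = 4) and 19.7% ± 4.58 (SD, n = 3) of the counts. *B4galt1* itself was at 48.7, 53.0, 49.2 and 51.6 CPM in *B4galt1* flox/flox mice 1 to 4 and at 28.4, 23.9 and 53.7 CPM in mice 1 to 3 labelled *B4galt1* hep-/-. Mouse 3 of the deleted label was thus above all controls, and the log2 fold change of -0.52 (SE 0.26, adjusted p = 0.181) was not called by edgeR, whereas both limma fits on FPKM called it, at -0.67 and -0.73 (adjusted p = 0.0389 and 0.0382). Without that mouse the edgeR value was -0.96 (adjusted p = 0.0139), and the counts cover the whole gene, including exons that the deletion may leave in place. The mitochondrial share of mouse 3 was 14.4%, against at most 8.0% in controls and 22.1% and 22.6% in the other mice of its label. The group is named by its label, and values without mouse 3 are given for each of the 9 genes.

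Dietary vitamin A reaches the liver as retinyl esters, is taken up by hepatocytes, and is stored as esters in the lipid droplets of hepatic stellate cells. Hepatocytes release retinol into the blood bound to the carrier RBP4, while oxidation of retinol to retinal and then to retinoic acid makes the ligand of the nuclear receptors RAR, which act as partners of RXR. CYP26 enzymes break retinoic acid down. In bulk liver, fewer cells of a type and less RNA per cell cannot be told apart.

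The promoters of *Bco1* and *Cyp26a1* are shown because they were the sole ones among the genes examined to hold a direct repeat of the nuclear receptor hexamer. Windows of 250 bases before the RefSeq transcript starts (build GRCm38.p6) were found for 8 of the 9 genes, in 12 windows. Each was searched on both strands for the hexamer AGGTCA or AGTTCA repeated in the same direction with a spacing of 1 base, the arrangement called DR1 that RXR binds with PPAR partners, or of 5 bases, the DR5 arrangement that RXR binds with RAR. Both windows lie on the plus strand at chr8:117095615-117095864 for *Bco1* and chr19:37697558-37697807 for *Cyp26a1*, and capitals mark the repeat with its spacer.
Bco1: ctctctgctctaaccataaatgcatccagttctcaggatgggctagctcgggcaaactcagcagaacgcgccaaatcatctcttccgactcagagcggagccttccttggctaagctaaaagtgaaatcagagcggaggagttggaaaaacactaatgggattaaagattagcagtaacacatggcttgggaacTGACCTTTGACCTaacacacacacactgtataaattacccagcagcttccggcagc
Cyp26a1: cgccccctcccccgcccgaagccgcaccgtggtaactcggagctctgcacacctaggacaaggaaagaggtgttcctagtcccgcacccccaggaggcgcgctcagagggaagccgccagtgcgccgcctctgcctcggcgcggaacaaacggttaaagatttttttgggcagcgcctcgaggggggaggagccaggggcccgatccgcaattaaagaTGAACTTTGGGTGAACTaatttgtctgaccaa
The *Bco1* repeat was a DR1 at 56 to 44 bases before the start, and the *Cyp26a1* repeat was a DR5 at 32 to 16 bases before the start. DR1 repeats of these letters were found in 22 of 32851 windows of the same length (0.067%), and DR5 repeats in 11 of 32851 (0.0335%). A single hexamer was far more common, in 24.2% of all windows, and was found for *Bco1*, *Cyp26a1*, *Rdh11* and *Rdh16*. A match describes the letters in these windows and not a bound site.

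Levels between genes were compared per kilobase of gene length. In *B4galt1* flox/flox livers *Rbp4* stood first at 2781 ± 343 CPM per kb (SD, n = 4), followed by *Rdh16* at 46.4 ± 4.54 and *Dhrs3* at 19.5 ± 1.53 CPM per kb. The next 5 genes lay close together, with *Rdh11* at 5.90 ± 1.27, *Rdh10* at 4.81 ± 0.843, *Lrat* at 4.08 ± 1.40, *Cyp26a1* at 2.77 ± 1.68 and *Bco1* at 2.36 ± 0.506 CPM per kb, and neighbours among these overlapped between mice. *Cyp26b1* was lowest at 0.473 ± 0.424 CPM per kb. In livers labelled *B4galt1* hep-/- the same 3 genes led, with *Rbp4* at 2231 ± 724 CPM per kb (SD, n = 3), and *Cyp26b1* was again lowest at 0.387 ± 0.0341, while the 5 genes between them again overlapped between neighbours.

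**Figure D1:**
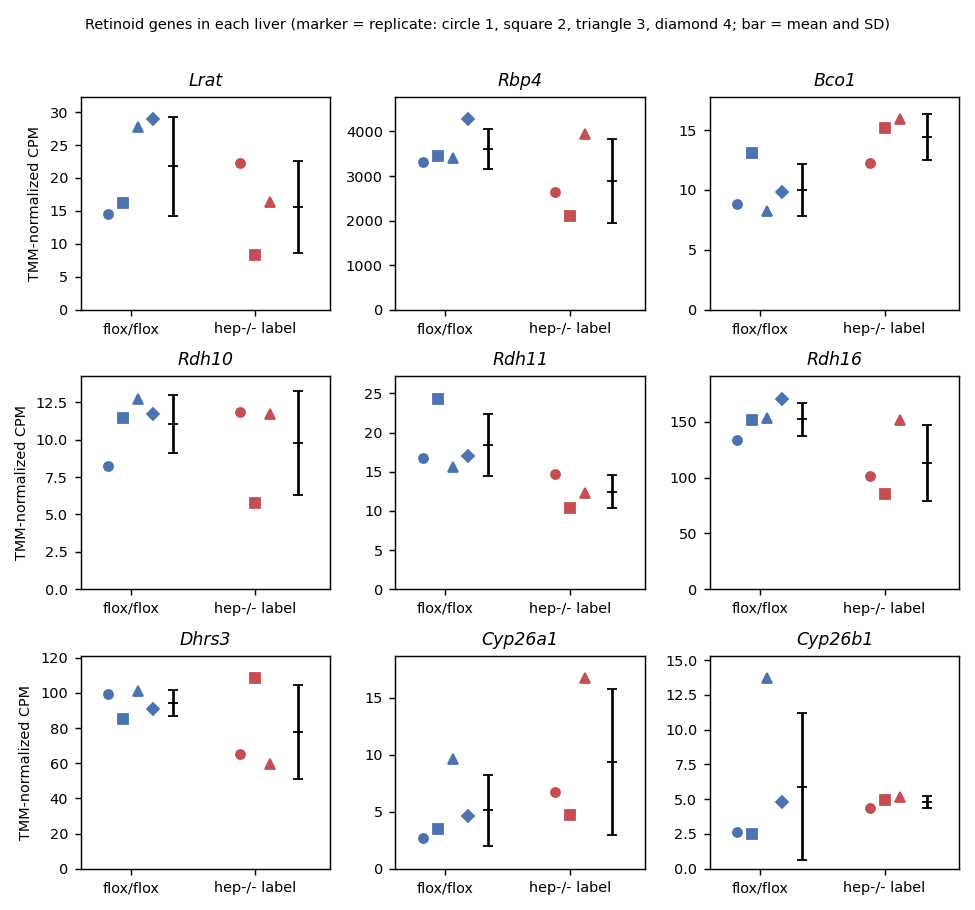
TMM-normalized CPM of each of the 9 retinoid genes in each liver, with 1 panel per gene, 4 *B4galt1* flox/flox mice in blue and 3 mice labelled *B4galt1* hep-/- in red; the marker gives the replicate number and the black bar the mean and SD. The groups overlap for every gene except *Rdh11*, where the 3 mice of the deleted label sit between 10.4 and 14.7 CPM, below all controls.

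Among the genes for storage and release, *Lrat* makes the retinyl esters that stellate cells store. *Lrat* (NCBI gene 79235) was at 14.5, 16.2, 27.7 and 28.9 CPM in *B4galt1* flox/flox mice 1 to 4 and at 22.2, 8.29 and 16.3 CPM in mice 1 to 3 labelled *B4galt1* hep-/-. The controls fell into a lower and a higher pair, and mice 1 and 3 of the deleted label lay within their range. Its log2 fold change was -0.48 (SE 0.34, 95% interval -1.23 to 0.26, adjusted p = 0.350, edgeR). With a mouse left out the value ran from -0.84, without mouse 1 of the deleted label, to -0.18, without mouse 2 of that label, and it was -0.52 without mouse 3. It was -0.35 and -0.32 without control mice 3 and 4.

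*Lrat* was read beside other genes of stellate cells. Of 18 stellate cell markers 17 were tested and 2 called by edgeR (11.8%, beside 15.8% of all tested genes), with 1 called lower, *Ngfr*, at a log2 fold change of -2.64 (adjusted p = 0.00389, edgeR), and 1 called higher, *Hand2*, at 0.74 (adjusted p = 0.0496, edgeR). DESeq2 called the same pair. The limma fits on FPKM called 0 of the markers that passed their level filter, which *Ngfr* did not pass, so its change was not tested there. Their median log2 fold change was -0.12, and their summed level was 785 to 1321 CPM in *B4galt1* flox/flox livers and 754 to 1094 CPM in the other group. For 7 markers of activated stellate cells, among them *Acta2* and *Col1a1*, 0 were called by edgeR or DESeq2 and 0 had an unadjusted p under 0.05 in either, with sums of 328 to 705 and 321 to 774 CPM. Neither list separated the groups in its summed level.

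*Rbp4*, the plasma carrier of retinol, was by far the most abundant of the 9. *Rbp4* (NCBI gene 19662) was at 3310, 3445, 3405 and 4270 CPM in *B4galt1* flox/flox mice 1 to 4 and at 2639, 2108 and 3935 CPM in mice 1 to 3 labelled *B4galt1* hep-/-. Mice 1 and 2 of the deleted label lay below all controls and mouse 3, the mouse with the control level of *B4galt1*, lay within them. This gave a log2 fold change of -0.32 (SE 0.26, 95% interval -0.89 to 0.26, adjusted p = 0.427, edgeR). The value was -0.61 without mouse 3 (adjusted p = 0.108) and -0.14 without mouse 2 (adjusted p = 0.777), so that neither fit called it. Of 10 hepatocyte markers 5 lay below 0 and 5 above, from *Cps1*, a urea cycle enzyme, at -0.85 to *Apoa1*, a lipoprotein component, at 0.70. By edgeR 0 of the 10 were called and 2 had an unadjusted p under 0.05, beside 15.8% and 32.9% of all tested genes. DESeq2 called *Cps1* lower and *Apoa1* higher, beside 3261 calls over 23347 genes. Both limma fits on FPKM called 4 lower, beside 1733 (pseudocount 1) and 1946 (pseudocount 0.1) lower calls over 10914 tested genes. The sums of the 10 markers, made up in large part of *Alb*, were 96600 to 138400 and 104000 to 169000 CPM.

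*Bco1* cleaves beta-carotene to retinal, the step that makes vitamin A from plant pigments. *Bco1* (NCBI gene 63857) was at 8.83, 13.1, 8.27 and 9.80 CPM in *B4galt1* flox/flox mice 1 to 4 and at 12.2, 15.1 and 15.9 CPM in mice 1 to 3 labelled *B4galt1* hep-/-. All 3 mice of the deleted label exceeded 3 of the 4 controls, and mouse 1 was below control mouse 2. Its log2 fold change was 0.53 (SE 0.22, 95% interval 0.05 to 1.01, adjusted p = 0.117, edgeR), with the unadjusted interval above 0 and the adjusted p over the threshold. It stayed between 0.31 and 0.68 over all 16 alternatives, 0 of which called it, and was 0.45 without mouse 3.

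Among the 9 genes, *Rdh11* was the one whose groups did not overlap. RDH11 is a microsomal dehydrogenase that acts on retinal in many tissues. *Rdh11* (NCBI gene 17252) was at 16.7, 24.3, 15.6 and 17.1 CPM in *B4galt1* flox/flox mice 1 to 4 and at 14.7, 10.4 and 12.3 CPM in mice 1 to 3 labelled *B4galt1* hep-/-. Its log2 fold change of -0.56 (SE 0.22, 95% interval -1.04 to -0.08, adjusted p = 0.101, edgeR) was not called. Groups that lay fully below the controls were found for 1 of the 9 genes against 15.0% of all tested genes, and groups fully above for 0 of 9 against 13.6%. Control mouse 2 was the highest, and without it the value was -0.40. Without mouse 3 of the deleted label it stayed at -0.56.

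*Rdh16* encodes a liver dehydrogenase that oxidizes retinol. *Rdh16* (NCBI gene 19683) was at 134, 151, 153 and 170 CPM in *B4galt1* flox/flox mice 1 to 4 and at 102, 85.7 and 151 CPM in mice 1 to 3 labelled *B4galt1* hep-/-. As with *Rbp4*, mice 1 and 2 of the deleted label were below all controls and mouse 3 was not. The log2 fold change was -0.43 (SE 0.22, 95% interval -0.92 to 0.06, adjusted p = 0.201, edgeR), and leaving out mouse 3 made it a call at -0.71 (adjusted p = 0.0479). Without mouse 2 it was -0.27. *Rdh16* lies in a cluster with near copies, so reads may have been split between them, and the values of this family are uncertain. Of those copies *Rdh9* was called lower at -1.06 (SE 0.26, adjusted p = 0.0208, edgeR), whereas *Rdh7* at -0.30 and *Rdh16f2* at -0.35 were not called. *Rdh1* at -1.21 was not called either and was very low, with means of 0.299 CPM in controls and 0.127 CPM in the other group. *Rdh19* was too low to be tested.

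*Rdh10* carries out the first oxidation on the way from retinol to retinoic acid, and *Dhrs3* reduces retinal back to retinol. *Rdh10* (NCBI gene 98711) was at 8.25, 11.4, 12.7 and 11.7 CPM in *B4galt1* flox/flox mice 1 to 4 and at 11.8, 5.76 and 11.7 CPM in mice 1 to 3 labelled *B4galt1* hep-/-. Apart from the low mouse 2 the 2 groups shared the same range. The log2 fold change was -0.18 (SE 0.28, 95% interval -0.78 to 0.43, adjusted p = 0.691, edgeR) and turned to 0.09 without mouse 2, while it was -0.34 without mouse 3.

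*Dhrs3* (NCBI gene 20148) was at 99.4, 85.3, 101 and 90.9 CPM in *B4galt1* flox/flox mice 1 to 4 and at 65.4, 108 and 59.3 CPM in mice 1 to 3 labelled *B4galt1* hep-/-. Here mouse 2 was the highest of all livers while mice 1 and 3 lay below all controls. The log2 fold change of -0.28 (SE 0.23, 95% interval -0.77 to 0.22, adjusted p = 0.418, edgeR) grew to -0.60 without mouse 2 (adjusted p = 0.0735) and shrank to -0.13 without mouse 3. *Dhrs3* overlaps *Vps13d* and *Lrat* overlaps *Rbm46os* in the RefSeq annotation, and the strand setting of the counting is not given in the sources used here.

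The 2 enzymes that break down retinoic acid had the widest intervals of the 9. *Cyp26a1*, which is induced by retinoic acid itself, is the main such enzyme of hepatocytes. *Cyp26a1* (NCBI gene 13082) was at 2.71, 3.51, 9.65 and 4.63 CPM in *B4galt1* flox/flox mice 1 to 4 and at 6.75, 4.71 and 16.7 CPM in mice 1 to 3 labelled *B4galt1* hep-/-. In each group mouse 3 was the highest. The resulting log2 fold change was 0.87 (SE 0.48, 95% interval -0.18 to 1.92, adjusted p = 0.231, edgeR). It was 1.37 without control mouse 3 (adjusted p = 0.0733) and 0.15 without mouse 3 of the deleted label (adjusted p = 0.850), so that the estimate rested on single livers.

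*Cyp26b1*, the CYP26 enzyme of many non-hepatic tissues, was the lowest of the 9 per kilobase. *Cyp26b1* (NCBI gene 232174) was at 2.62, 2.48, 13.7 and 4.80 CPM in *B4galt1* flox/flox mice 1 to 4 and at 4.35, 4.98 and 5.16 CPM in mice 1 to 3 labelled *B4galt1* hep-/-. Control mouse 3 stood far above the other 6 livers. The log2 fold change of -0.29 (SE 0.52, 95% interval -1.43 to 0.85, adjusted p = 0.730, edgeR) turned to 0.55 without that mouse (adjusted p = 0.299) and was -0.35 without mouse 3 of the deleted label.

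The same control liver was high in markers of sinusoidal endothelium and of Kupffer cells, and in the summed level of stellate cell markers. The 6 endothelial markers summed to 295 CPM in control mouse 3, to 69.9 to 106 CPM in the other controls, and to 97.0 to 116 CPM in livers labelled *B4galt1* hep-/-. *Clec4g*, a lectin of these cells, was at 90.9 CPM in control mouse 3 against 19.9 to 28.4 CPM in the other controls. *Lyve1*, a hyaluronan receptor, was at 48.4 CPM against 2.74 to 5.0 CPM. Of the 6 markers, all were highest in this liver, though *Stab2*, at 49.1 CPM there, was at 48.7 CPM in mouse 2 of the deleted label. *Kdr* was called lower by edgeR and DESeq2, at a log2 fold change of -1.33, and the limma fits called 0 of the 6. Its controls were at 10.3, 10.5, 35.2 and 21.7 CPM and the other group at 6.59 to 8.87 CPM. This liver also had the highest sums of all 7 for the Kupffer cell markers, 603 CPM, and for the stellate cell markers, 1321 CPM. *Adgre1*, a macrophage receptor, was at 71.3 CPM there against 20.1 to 25.6 CPM in the other controls. *Dcn*, a matrix proteoglycan that made up a large part of the stellate sum, was at 750 against 353 to 515 CPM. The other stellate cell markers were mixed, with *Reln* highest there of all 7 livers at 87.7 CPM and *Lhx2* lowest at 3.42 CPM.

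The genes whose deviations from the group means were most like those of *Cyp26b1* over the 7 mice were *Adam23* (Pearson r = 0.995), *Adgrf5* (r = 0.983) and *Clec4g* (r = 0.980), among genes at or above the median level. Without control mouse 3 these values were 0.965, 0.912 and 0.894, for genes picked with that mouse included. The top values of the same search for the other retinoid genes were 0.937 to 0.999. All of these describe likeness over few libraries that share depth and normalization. *Adam23* was at 8.92, 9.51, 35.6 and 15.1 CPM in control mice 1 to 4 and at 16.5, 19.1 and 17.5 CPM in the other group, so it shared the high control mouse 3. Whether the content of endothelial, Kupffer or stellate cells in this liver had a part in its *Cyp26b1* level was not tested.

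**Figure D2:**
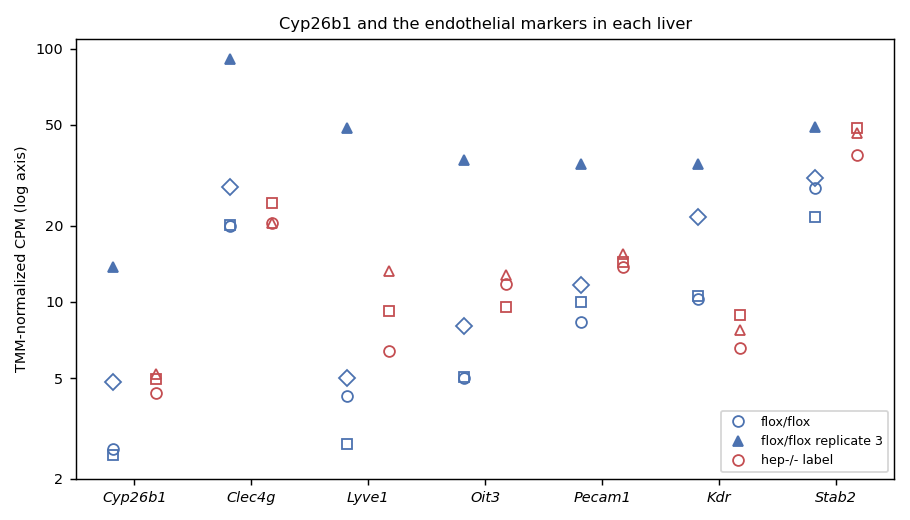
TMM-normalized CPM on a log axis of *Cyp26b1* and 6 endothelial markers in each liver, with *B4galt1* flox/flox mice in blue, mice labelled *B4galt1* hep-/- in red, marker shape for the replicate number and control mouse 3 filled. Control mouse 3 is the highest point for *Cyp26b1* at 13.7 CPM and for *Clec4g* at 90.9 CPM, while its *Stab2* value of 49.1 CPM meets that of mouse 2 of the deleted label at 48.7 CPM.

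Between the 9 genes the same measure, taken over 7 libraries and given as a description, was highest for *Rbp4* and *Rdh16* (r = 0.976) and next for *Lrat* and *Rdh10* (r = 0.876). *Dhrs3* ran opposite to several others, at r = -0.86 with *Rdh10*, -0.80 with *Rbp4* and -0.78 with *Rdh16*. These pairs mirror the livers named above. Mouse 2 of the deleted label had the lowest *Rbp4*, *Rdh16*, *Lrat* and *Rdh10* and the highest *Dhrs3*, and mouse 3 of that label had control levels of *Rbp4* and *Rdh16*. Mouse 2 of that label also had the highest sum of 5 cholangiocyte markers, 870 CPM, where controls ranged from 254 to 656 CPM.

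As a group, then, 0 of 9 genes were called by edgeR and 0 by DESeq2, against backgrounds of 7.83% of tested genes called lower and 8.0% called higher. At an unadjusted p under 0.05 there were 2 by edgeR and 2 by DESeq2, *Rdh11* and *Bco1* in each case, and 3 of 8 tested by limma on FPKM values, which were *Rbp4*, *Rdh11* and *Rdh16*. In the edgeR fit 32.9% of all tested genes passed that mark, above the 22.2% of the 9. The median log2 fold change of the 9 was -0.29, beside 0.02 for all tested genes. The limma fit on log2(FPKM + 1) had *Rdh11* at -0.562 (adjusted p = 0.0405) and *Rdh16* at -0.577 (adjusted p = 0.0267), short of the fold change threshold alone. The limma fit on log2(FPKM + 0.1) called *Rdh11* at -0.67 (adjusted p = 0.0367) and *Rdh16* at -0.59 (adjusted p = 0.0269), among 2547 calls over 10914 tested genes. That fit differs from the edgeR fit in test, gene filter, pseudocount and scaling, and its fold changes had a median shift of -0.13 over the genes in both. Relative to that shift the values were -0.54 and -0.46. The share of calls that were higher was 50.5% in the edgeR fit and 23.6% in this one. The intervals of the 9 genes leave room for changes past the threshold in 1 direction or both, so a missing call does not show equal levels.

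**Figure D3:**
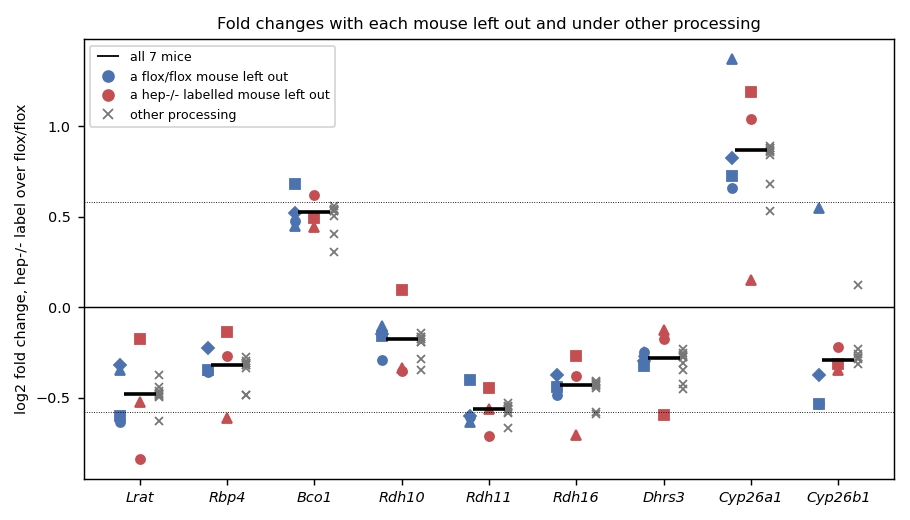
Log2 fold change of each of the 9 genes with all 7 mice (black bar), with 1 *B4galt1* flox/flox mouse left out (blue), with 1 mouse labelled *B4galt1* hep-/- left out (red; shapes give the replicate number as in the plot of values by mouse) and under other processing (crosses); dotted lines mark the threshold of 0.58. *Cyp26a1* runs from 0.15 to 1.37, *Cyp26b1* and *Rdh10* change sign, and *Bco1* stays between 0.31 and 0.68.

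The rest of the retinoid pathway was described from lists of 66 further genes by role, of which 61 were in the table and 54 were tested. Of these 10 were called, 9 of them lower and 1 higher, and the median log2 fold change of all 54 was -0.25, with 34 below 0 and 20 above. Among all tested genes 15.8% were called and 48.7% lay below 0, beside 18.5% and 63.0% of the 54. By direction, 16.7% of the 54 were called lower and 1.85% higher, beside 7.83% and 8.0% of all tested genes. The called genes comprised 7 enzymes, 2 proteins of binding and uptake and 1 receptor.

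Among the dehydrogenases, 5 of 22 tested genes (22.7%) were called lower and 1 (4.55%) higher, beside backgrounds of 7.83% and 8.0%. *Aldh1a1*, which makes retinoic acid from retinal, fell to 540 ± 193 CPM (SD, n = 3) from 1499 ± 191 CPM (SD, n = 4), a log2 fold change of -1.47 (SE 0.28, adjusted p = 0.00881, edgeR). *Adh4*, an alcohol dehydrogenase that takes retinol, fell from 98.5 ± 15.3 to 33.2 ± 12.3 CPM, or -1.57 (SE 0.26, adjusted p = 0.00545). *Rdh9*, *Dhrs4* and *Dhrs7* fell by 1.06, 0.88 and 0.83 on the log2 scale, and *Rdh5*, a retinol dehydrogenase of the visual cycle, rose by 0.76 (adjusted p = 0.0496). *Aldh1a7*, a close relative of *Aldh1a1* named here after its values were seen, was at -0.86 (adjusted p = 0.0686, edgeR) and was called lower by DESeq2 and by both limma fits, and the limma fits did not call *Rdh5*. The abundant *Adh1* was at 0.02 (adjusted p = 0.973) and *Hsd17b13*, a lipid droplet protein, at -0.34 (adjusted p = 0.418).

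In the list for esters and carotenoids, 1 of 10 tested genes (10%) was called by edgeR, beside 15.8% of all tested genes, while DESeq2 called 2 and each limma fit 3. *Retsat*, which saturates retinol, fell from 493 ± 44.4 to 195 ± 32.0 CPM, a log2 fold change of -1.34 (SE 0.21, adjusted p = 0.00396, edgeR). The lipases *Lpl* at -0.16, *Ces1d* at -0.34 and *Pnpla2* at -0.48 were not called by edgeR, and both limma fits called *Pnpla2* lower. For binding and uptake, 6 of 12 genes were tested and 2 of the 6 (33.3%) called by edgeR. *Fabp5*, which carries retinoic acid and fatty acids, fell by 0.99 (SE 0.21, adjusted p = 0.0128), and *Scarb1*, which takes up carotenoids and lipoprotein lipids, fell by 0.65 (SE 0.19, adjusted p = 0.0436). *Ttr*, the plasma partner of RBP4, was at 0.43 (adjusted p = 0.262) and *Lrp1* at -0.56 (adjusted p = 0.151). *Stra6l*, the hepatic receptor for RBP4, was at 96.9, 85.4, 54.3 and 88.1 CPM in control mice 1 to 4 and at 96.5, 148 and 162 CPM in the other group, or 0.74. It was not called by edgeR (adjusted p = 0.0598) and was called higher by DESeq2 (adjusted p = 0.0289), in 3 of 16 alternatives in all.

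Of the 7 receptor genes tested, 1 was called by edgeR (14.3%, beside 15.8% of all tested genes). This gene, *Rxra*, the main RXR of liver, fell from 326 ± 40.0 to 147 ± 17.6 CPM, a log2 fold change of -1.15 (SE 0.20, adjusted p = 0.00605, edgeR). *Rara* at 0.26, *Rarb* at 0.07, *Rarg* at 0.30, *Rxrb* at 0.22, *Rxrg* at -0.21 and *Ppard* at 0.35 were not called, and *Rarb* and *Rarg* changed sign under some alternatives. Among 4 other tested genes for breakdown of retinoic acid edgeR called 0, with 1 at an unadjusted p under 0.05 (25.0%, beside 32.9% of all tested genes). That gene, *Cyp3a11*, was at -0.89 (adjusted p = 0.0510, edgeR) and was called lower by DESeq2 (adjusted p = 0.00853) and in 8 of 16 alternatives, while *Cyp2c39* at -0.48 and *Cyp1b1* at -0.51 were called in 0. Among 7 tested genes known to respond to retinoic acid 0 were called by edgeR, DESeq2 or limma, beside 15.8% of all tested genes by edgeR. An unadjusted p under 0.05 was found for 2 by edgeR (28.6%, beside 32.9% of all tested genes) and for 3 by DESeq2. Of these 7, 6 lay above 0, such as *Fgf21* at 0.68 and *Rarb* at 0.07, and *Tgm2* at -0.32 was the one below. Among all tested genes 48.7% lay below 0. *Stra6*, *Crabp2* and *Cyp26c1*, also of these lists, were too low to be tested.

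The calls of *Retsat*, *Adh4*, *Aldh1a1*, *Rxra* and *Fabp5* stood in all 16 alternatives. Those of *Scarb1*, *Rdh5*, *Rdh9* and *Dhrs7* were lost without control mouse 2 or without control mouse 3, which left 6 calls each. Of the 7 fits that leave out a mouse, *Scarb1* was called in 1, *Rdh5* and *Dhrs7* in 2 and *Rdh9* in 5. The *Rdh5* call was also lost in both limma fits (adjusted p = 0.0604 and 0.0609) and without mitochondrially encoded genes (adjusted p = 0.0508). Without mouse 3 of the deleted label the 9 lower calls stood, for example *Retsat* at -1.46, *Aldh1a1* at -1.70, *Adh4* at -1.55, *Rxra* at -1.23 and *Scarb1* at -0.82. Of 8 markers of pericentral hepatocytes, 7 moved in the same direction as the lowered genes and *Axin2* was at 0.04. By edgeR 5 of the 8 were called lower (62.5%, beside 7.83% of all tested genes), with 7 by DESeq2 and 6 by limma, among them *Glul* at -1.30 and *Cyp2e1* at -1.32. Their sums, made up in large part of *Cyp2e1*, were 11150 to 12640 CPM in controls and 3011 to 6467 CPM in the other group and did not overlap. For 6 periportal markers 0 were called by edgeR or DESeq2, with 1 at an unadjusted p under 0.05 in each, and limma called 1 lower, with sums of 4412 to 7069 and 4733 to 6377 CPM, and Kupffer cell markers summed to 310 to 603 and 191 to 278 CPM with 2 of 6 called lower by edgeR (33.3%), 3 by DESeq2 and 4 by limma. Their part in the levels of the retinoid genes was not tested.

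**Figure D4:**
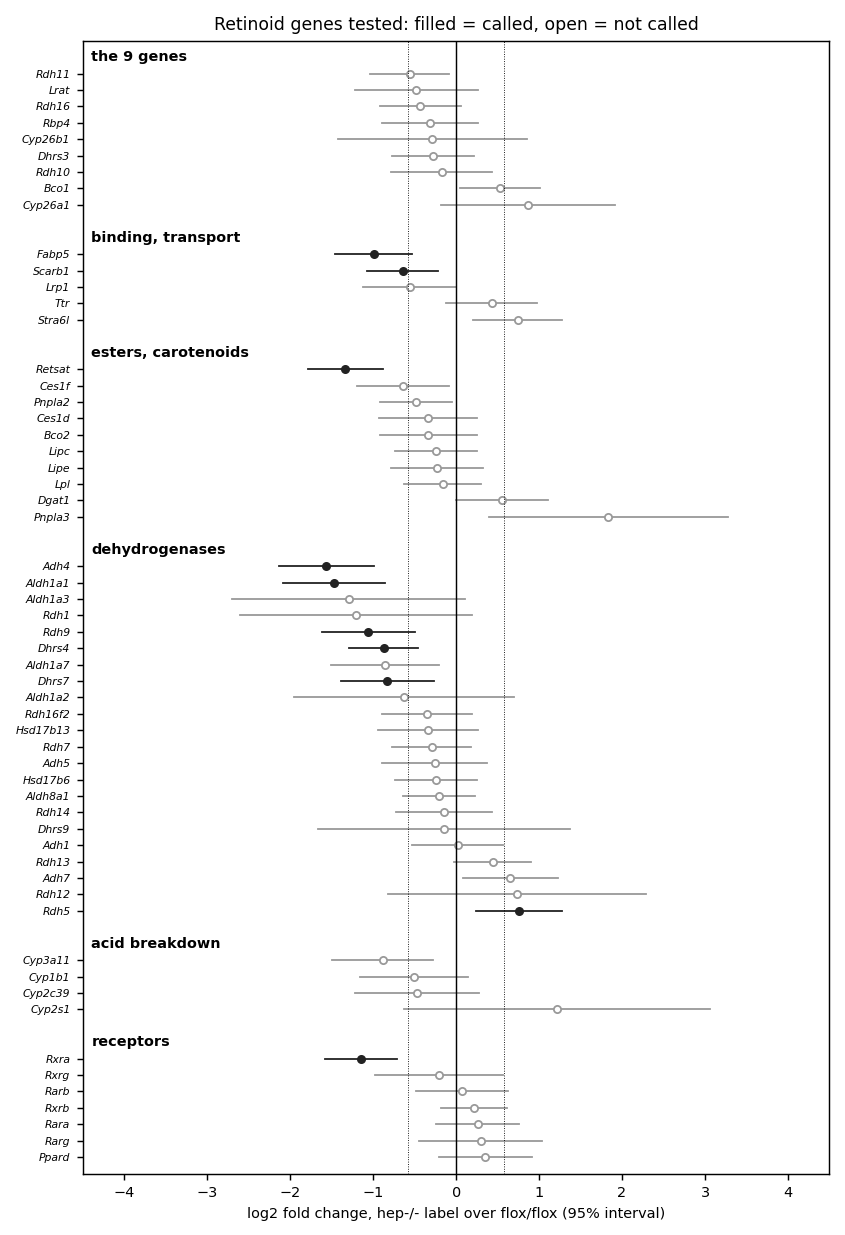
Log2 fold change with its 95% interval from edgeR for tested genes of 6 retinoid roles (1 gene and the genes known to respond to retinoic acid are not drawn), livers labelled *B4galt1* hep-/- over *B4galt1* flox/flox livers, grouped by role; filled points were called and open points were not, and dotted lines mark 0.58 in either direction. All 9 genes of the top group are open, while *Retsat*, *Adh4*, *Aldh1a1*, *Rxra* and *Fabp5* stand filled to the left, between -1.57 and -0.99.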

How the data were processed

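Liver RNA of 7 CDAHFD-fed mice was analysed, 1 library per mouse, grouped by the genotype in the labels. RNA was extracted with TRIzol and libraries were prepared with a VAHTS Universal V6 kit by the authors, who deposited raw counts per gene, which they had not normalized, and FPKM values for the same genes. The submitters' processing notes name fastp, HISAT2, HTSeq, DESeq2, R 3.2.0 and GRCm39, and the annotation is not given in the sources used here. For 13374 genes, FPKM equalled the count over the gene length and library total to within 7.22e-06 percent. Total counts were 30608271 to 39668509, so that 3 counts stand for 0.069 to 0.0987 CPM. No 2 libraries agreed within sampling noise.

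Counts of the 15179 genes kept by filterByExpr (minimum count 10, minimum total 15) were tested with edgeR 4.0.16 in R 4.3.3 (TMM, quasi-likelihood F-test, group as sole term, Benjamini-Hochberg adjustment over all of them). Calls needed an adjusted p under 0.05 and a log2 fold change over 0.58 in either direction, the study's thresholds. The p-values measure the spread between these mice. Results were recomputed with DESeq2 1.42.0, with RLE or upper-quartile normalization, with 13 mitochondrially encoded genes left out, with 2 other count filters, with limma 3.58.1 on log2 FPKM (pseudocount 1 or 0.1, genes reaching an FPKM of 1 in 3 mice), with the replicate number as a block, without a fold change threshold, and with each mouse left out. A pseudocount understates the change of low genes.

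The retinoid genes, pathway lists and marker lists were chosen with earlier results of these data known. By the rule for named genes the text gives *B4galt1*, the 9 retinoid genes, called genes and receptors of the pathway lists, up to 3 abundant uncalled genes per list, near copies of *Rdh16*, and genes whose deviations were most like those of a retinoid gene. A gene of the pathway lists is counted with its lists but not reported here. Other marker genes are named as examples of their lists. RefSeq promoter windows are of GRCm38.p6, another build than that of the counts, and are used for sequence alone. *Rdh10* had no window.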

Additional observations from a re-analysis of the deposited data

Results flagged for a closer look

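Within the 4 *B4galt1* flox/flox livers, the genes and summed marker lists were searched for a library whose gap to its nearest neighbour was too large a share of the group's range (Dixon's criterion at the 95% level). The search covered 64 genes and 8 summed marker lists, 72 in all, of which 4 met the criterion, and chance flags about 1 in 20. *Rbp4* was at 4270 CPM in control mouse 4 where the other controls were at 3310 to 3450 CPM, a gap of 0.859 of the range. *Rdh11* was at 24.3 CPM in control mouse 2 with the others at 15.6 to 17.1 CPM, a gap of 0.832. *Cyp2s1*, a low gene of retinoic acid breakdown, was at 0.989 CPM in control mouse 1 with the others at 0.254 to 0.351 CPM, a gap of 0.868. The sum of the endothelial markers was 295 CPM in control mouse 3 with the others at 69.9 to 106 CPM, a gap of 0.841.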

How the results depend on the processing

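With 7 mice the intervals of the 9 genes were wide, and single livers moved several estimates. The count of called genes among the 9 was 0 in the reported fit and rose to 2 with limma on log2(FPKM + 0.1), and it ranged from 0 to 1 with each mouse left out. Calls among the other retinoid genes, 10 as reported, ranged from 6 to 11 with each mouse left out and were 14 with DESeq2, 13 in both limma fits and 12 with the filter of at least 1 count in any mouse. The count over all tested genes, 2404 as reported, ranged from 885, without control mouse 2, to 2396 with each mouse left out; it was 1405 and 1552 without control mice 3 and 4 and 1199 without mouse 2 labelled *B4galt1* hep-/-. With the replicate block it fell to 1267, calls among the other retinoid genes were 7, with *Scarb1*, *Dhrs4* and *Dhrs7* lost, and 0 of the 9 genes were called. The replicate numbers were not taken to pair the mice: no label says so, and the deviations of equally numbered mice correlated at -0.337, -0.034 and 0.0777.

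Of the 9 genes 7 kept their direction in every alternative. With each mouse left out, *Rdh10* ranged from -0.35 to 0.0938 and *Cyp26b1* from -0.536 to 0.549, and under the block *Cyp26b1* was at 0.121. The near-zero *Adh1* was at -0.161 in both limma fits, at -0.00607 under the block and between -0.18 and 0.251 with a mouse left out. *Rarb* was at -0.0317 and -0.0482 with limma (pseudocounts of 1 and 0.1) and between -0.0858 and 0.191 with a mouse left out, and *Rarg* was between -0.381 and 0.552. The share of calls that were higher was 24.5% and 23.6% in the limma fits, against 50.5% as reported, and the median shift of all genes in the limma fits was -0.12 and -0.13 on the log2 scale. Apart from leaving out livers, the cause of these changes was not tested.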
